A study of Mus musculus with 9 samples.

Results

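The 6 genes described here encode parts of the superoxide-producing NADPH oxidases. They are *Cybb*, *Cyba*, *Ncf1*, *Ncf4*, *Rac2* and *Nox4*, taken by gene symbol from the 18349 genes listed for 9 mouse iris RNA-Seq libraries, and all 6 were among the 15010 genes that passed a filter on low counts. The libraries fall into 3 groups of 3, and each library pooled 3 irises of 1 genotype from mice on a C57BL/6J background. In the Sham VEGFR3fl/fl group, mice with floxed *Flt4* (the gene for VEGFR3) and no Cre had PBS on the cornea at 6 weeks of age. In the injured VEGFR3fl/fl group, littermates of that genotype had filter paper with 1 M sodium hydroxide (0.5 μL) laid on the cornea for 60 seconds, the corneal alkali injury (CAI). The injured VEGFR3iLECko group had the same injury and also carried Prox1-CreERT2, a tamoxifen-inducible Cre under the *Prox1* promoter, which is active in lymphatic endothelium and in other cells that express *Prox1*. Tamoxifen at 80 mg/kg was given on days 13 to 17 after CAI to both VEGFR3iLECko and VEGFR3fl/fl littermates, and irises were collected at 10 weeks of age.

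The phagocyte NADPH oxidase is assembled on demand. CYBB (gp91phox) and CYBA (p22phox) form the membrane-bound cytochrome that passes electrons from NADPH to oxygen, NCF1 (p47phox) and NCF4 (p40phox) are among the subunits that wait in the cytosol, and the GTPase RAC2 joins them at the membrane when a neutrophil or macrophage is activated. NOX4 is a related catalytic subunit that also needs CYBA but not the cytosolic subunits, is largely constitutive, yields mostly hydrogen peroxide, and is known from endothelium, kidney, fibroblasts and smooth muscle rather than from phagocytes.

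Sequence upstream of the start of transcription was available for *Cybb*, *Cyba*, *Ncf1* and *Nox4* and is shown as a description. Whether it bears on the values of these genes was not tested. The windows are the 180 bases before the start in RefSeq for GRCm38.p6, written 5′ to 3′ on the strand of the gene. Those of *Cybb* and *Nox4* precede the start of a transcript that begins inside the annotated span of the gene given below, not at its 5′ end. The *Ncf1* window, from base 134229626, also overlaps the span of its gene, which ends at 134229628. Capitals mark matches to 3 patterns searched on both strands, chosen after the sequences were in view: GAAA and GAAA with any 2 bases between them, the core of the interferon-stimulated response element, GGAA and GAAA with any 2 bases between them, an ETS-IRF composite element, and GAGGAA, a PU box bound by factors of the PU.1 family. Matches may overlap.

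Cybb, chrX:9469325-9469504, minus strand: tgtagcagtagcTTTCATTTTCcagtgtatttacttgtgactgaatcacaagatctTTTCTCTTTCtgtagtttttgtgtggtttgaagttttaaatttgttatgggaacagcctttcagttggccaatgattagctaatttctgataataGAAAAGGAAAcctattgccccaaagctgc

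Ncf1, chr5:134229626-134229805, minus strand: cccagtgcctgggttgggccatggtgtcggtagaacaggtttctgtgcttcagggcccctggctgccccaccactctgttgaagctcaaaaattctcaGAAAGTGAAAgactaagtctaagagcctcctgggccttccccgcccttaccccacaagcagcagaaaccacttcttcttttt

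Cyba, chr8:122432941-122433120, minus strand: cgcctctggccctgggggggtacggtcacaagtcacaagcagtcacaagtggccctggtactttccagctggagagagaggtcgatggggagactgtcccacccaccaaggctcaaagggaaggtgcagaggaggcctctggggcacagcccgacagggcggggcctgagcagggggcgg

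Nox4, chr7:87246469-87246648, plus strand: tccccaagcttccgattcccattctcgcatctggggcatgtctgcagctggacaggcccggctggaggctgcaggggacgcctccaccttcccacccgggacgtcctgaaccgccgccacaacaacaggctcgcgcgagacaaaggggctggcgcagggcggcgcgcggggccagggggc

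In the full window of 250 bases before and 50 after the start, *Cybb* held 3 matches to the interferon-stimulated core and *Ncf1* held 1. The *Cybb* matches lay 20 to 29, 115 to 124 and 159 to 168 bases before the start, and the *Ncf1* match lay 73 to 82 bases before it. The window of *Cybb* also held 1 ETS-IRF match, TTTCATTTCC on the strand of the gene, 4 to 13 bases after the start, and 1 PU box, TTCCTC, that shares bases with it. The windows of *Cyba* and *Nox4* held none of the 3 patterns. Of 32851 promoter windows of the same 300 bases, 3.44% held the interferon-stimulated core, 2.72% the ETS-IRF pattern and 28.3% the PU box. The share of G and C was 35.3% for *Cybb*, 54% for *Ncf1*, 60.7% for *Cyba* and 68.3% for *Nox4*. A match is a description of the letters only. Because the patterns were chosen with these sequences in view, the shares over all windows give no test of enrichment.

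Library totals ranged from 16617211 to 18306377 counts. *Flt4* was not lower in the libraries labelled VEGFR3iLECko (27.9, 21.0 and 27.4 CPM) than in the injured VEGFR3fl/fl libraries (16.8, 20.7 and 23.0 CPM). Its log2 difference was 0.34 ± 0.15 (SE) (edgeR adjusted p = 0.200), in whole iris that does not separate lymphatic endothelium. The iris gene *Pax6* was 755 ± 21.0 CPM in Sham and 213 ± 16.7 CPM in injured VEGFR3fl/fl (SD, n = 3 each) and was called lower after CAI, and the 2 ciliary body genes together stayed between 1.44 and 3.64 CPM. The summed level of 4 Y-linked genes lay between 51.1 and 167 CPM in the Sham libraries, at 151, 136 and 0.804 CPM in the injured VEGFR3fl/fl libraries and between 0.736 and 1.11 CPM in all 3 VEGFR3iLECko libraries, so the Y-linked signal moved with genotype and the 2 cannot be fully told apart.

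The first comparison asked how the oxidase genes changed after CAI. All 6 were higher in each injured VEGFR3fl/fl library than in any Sham library, and all 6 of 6 were called (adjusted p under 0.05 and a change over 1.5-fold), against 39.7% of all genes tested that were called, 22.1% higher and 17.5% lower. In 33.9% of all genes every injured library was above every Sham library. The median log2 fold change of the 5 phagocyte subunits was 4.34, against 0.010 over all genes tested. *Ncf4*, *Rac2*, *Ncf1* and *Cybb* rose by 17.6-fold to 28.2-fold, *Cyba* by 3.64-fold and *Nox4* by 2.83-fold.

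*Cybb* (NCBI Gene ID 13058, chrX:9435252-9487766, minus strand) encodes the catalytic subunit. It had 238, 239 and 235 counts in Sham, 4818, 2744 and 4374 in injured VEGFR3fl/fl and 2355, 2557 and 2254 in VEGFR3iLECko. Scaled to library size by TMM and given as CPM, the mean was 13.3 ± 0.171 CPM (SD, n = 3) in Sham and 235 ± 67.4 CPM (SD, n = 3) after CAI. The log2 fold change was 4.14 ± 0.21 (SE) (adjusted p = 5.08e-07, quasi-likelihood test of edgeR). The Sham libraries lay close together, whereas injured VEGFR3fl/fl replicate 2 stood well below the other two of its group, and the groups did not overlap.

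*Cyba* (13057, chr8:122424771-122432940, minus strand) encodes the partner that stabilizes both CYBB and NOX4. Its counts were 1461, 1849 and 1596 in Sham, 6480, 5301 and 5197 in injured VEGFR3fl/fl and 4006, 3600 and 3144 in VEGFR3iLECko. The mean rose from 91.7 ± 11.9 to 334 ± 51.7 CPM (SD, n = 3 each), a log2 fold change of 1.86 ± 0.15 (SE, edgeR adjusted p = 7.27e-06). Each injured library was above every Sham library, but the fold was smaller than for the other phagocyte subunits.

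*Ncf1* (17969, chr5:134220053-134229628, minus strand) encodes the organizer that brings the cytosolic complex to the membrane. It had 103, 71 and 99 counts in Sham, 1512, 1796 and 1972 in injured VEGFR3fl/fl and 1374, 1288 and 1327 in VEGFR3iLECko. The log2 fold change after CAI was 4.34 ± 0.14 (SE, edgeR adjusted p = 5.16e-08), from 5.10 ± 0.943 to 103 ± 10.8 CPM (SD, n = 3 each). *Ncf1* and *Cybb* each overlap another annotated locus (LOC115490142 and Gm33784), and the counting is not stated to use strand, so reads shared with those loci cannot be told apart.

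*Ncf4* (17972, chr15:78244164-78262582, plus strand) encodes the subunit that binds phosphoinositides on phagosomes. It had 51, 40 and 48 counts in Sham, 1262, 1226 and 1259 in injured VEGFR3fl/fl and 903, 1049 and 1116 in VEGFR3iLECko. It had the largest fold of the 6 after CAI, with a log2 fold change of 4.82 ± 0.11 (SE, edgeR adjusted p = 1.79e-08) and means of 2.60 ± 0.297 and 73.6 ± 2.64 CPM (SD, n = 3 each). The injured VEGFR3fl/fl libraries differed little among themselves.

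*Rac2* (19354, chr15:78559169-78572783, minus strand) encodes the GTPase of blood cells that activates the complex. It had 111, 149 and 148 counts in Sham, 2161, 2858 and 3026 in injured VEGFR3fl/fl and 1967, 1800 and 2009 in VEGFR3iLECko. The log2 fold change after CAI was 4.37 ± 0.16 (SE, edgeR adjusted p = 8.92e-08), from 7.63 ± 1.29 to 157 ± 23.0 CPM (SD, n = 3 each). *Rac1*, the GTPase of the same family found in nearly all cells, had 349, 377 and 383 CPM in Sham and 424, 448 and 457 CPM in injured VEGFR3fl/fl, a log2 difference of 0.26 (edgeR adjusted p = 0.0130) that is under 1.5-fold. The log2 ratio of *Rac2* to *Rac1* within a library was −5.61 ± 0.187 in Sham and −1.502 ± 0.166 in injured VEGFR3fl/fl (SD, n = 3 each).

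*Nox4* (50490, chr7:87244430-87398710, plus strand) had 434, 401 and 378 counts in Sham, 967, 1073 and 1232 in injured VEGFR3fl/fl and 1081, 1309 and 1437 in VEGFR3iLECko. Its mean rose from 22.7 ± 1.38 to 64.1 ± 6.13 CPM (SD, n = 3 each), a change of 2.83-fold (95% CI 2.37 to 3.38, edgeR adjusted p = 5.74e-06). The groups did not overlap. Other cell type markers moved with this rise: the summed level of 6 fibroblast markers went from 3799 to 4366 CPM in Sham to 15501 to 22500 CPM in injured VEGFR3fl/fl and that of 6 blood endothelial markers from 373 to 396 CPM to 1057 to 1245 CPM, while 7 smooth muscle markers went from 7268 to 9478 CPM down to 1476 to 3087 CPM. Of the 6 fibroblast markers, *Col1a1*, *Col1a2*, *Col3a1* and *Lum* were called higher. *Dcn* (mean 2231 to 2581 CPM) and *Pdgfra* (176 to 196 CPM) were not called, so the sum does not describe every marker. The part of these cell types in the *Nox4* values was not tested. In Sham, *Nox4* was above *Cybb* in CPM, and in both injured groups it was below: the log2 ratio of *Cybb* to *Nox4* was −0.77 ± 0.0920 in Sham and 1.83 ± 0.481 in injured VEGFR3fl/fl (SD, n = 3 each), a difference of 2.60. With 3 libraries against 3 the smallest p that an exact two-sided permutation test allows is 0.1, and this difference had p = 0.1 (0.159 after adjustment over 27 ratio comparisons).

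**Figure D1:**
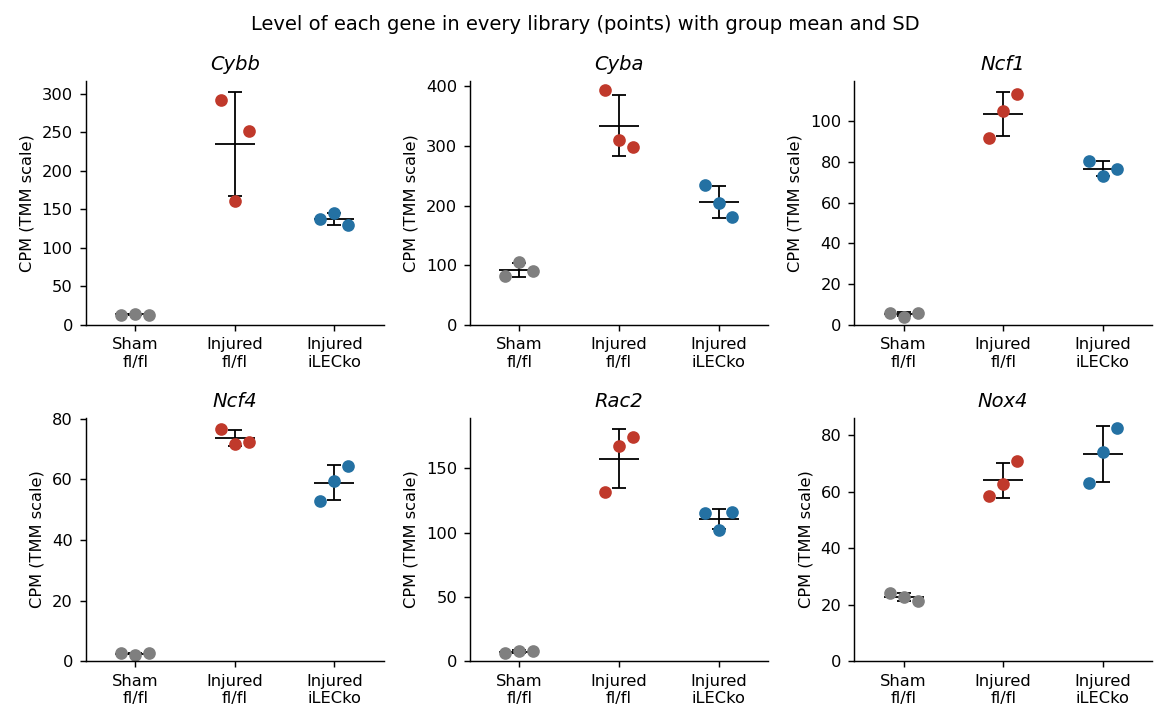
Level of each of the 6 genes in CPM (counts scaled to library size by TMM, linear axes from 0) in every library of the 3 groups, with the group mean and SD as bars. The injured libraries lie above all Sham libraries in every panel, and the VEGFR3iLECko points lie below the injured VEGFR3fl/fl points for all genes but *Nox4*, where the 2 injured groups overlap.

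Levels of different genes are compared here per kilobase of the longest transcript, as approximate TPM (counts divided by length and scaled to the same total in each library). *Cyba* was the highest of the 6 in every group, with 352 ± 31.2 approximate TPM in Sham, 1038 ± 74.3 in injured VEGFR3fl/fl and 716 ± 80.3 in VEGFR3iLECko (SD, n = 3 each). In Sham the next was *Nox4* at 16.5 ± 1.42, and *Cybb* (8.01 ± 0.223), *Rac2* (7.16 ± 1.02), *Ncf4* (5.09 ± 0.773) and *Ncf1* (5.09 ± 1.11) followed (SD, n = 3 each). *Cybb* and *Rac2* lay within about 1 SD of each other, as did *Ncf4* and *Ncf1*. With the median transcript length in place of the longest, *Cybb* was 20.1 and *Rac2* 19.8 approximate TPM in Sham, both above *Nox4* at 10.4, which then ranked 4.

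After CAI the order was different. In injured VEGFR3fl/fl, *Rac2* (122 ± 26.2), *Ncf4* (117 ± 5.15), *Cybb* (114 ± 27.7) and *Ncf1* (84.0 ± 14.8 approximate TPM, SD, n = 3 each) followed *Cyba*, and with the longest transcript the first 3 of these did not differ beyond their spread. With the median transcript length *Rac2* was 355 ± 69.2, *Cybb* 303 ± 76.7 and *Ncf4* 105 ± 2.17 (SD, n = 3 each), so that *Ncf4* stood below the other two, and the order of these genes depends on the length used. *Nox4* ranked 6 of 6 at 38.2 ± 6.20 approximate TPM in injured VEGFR3fl/fl and at 48.4 ± 7.33 in VEGFR3iLECko (SD, n = 3 each), under each of the 3 rules for length. On this scale *Cyba* stood above the sum of its partners *Cybb* and *Nox4* in all groups.

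The second comparison asked how the genes differed between the genotypes after injury. The 5 phagocyte subunits were lower in every VEGFR3iLECko library than in any injured VEGFR3fl/fl library, and *Nox4* overlapped. Of all genes tested, 14.3% were lower in this way. None of the 6 passed the test: 0 of 6 were called by edgeR's quasi-likelihood test, against 1.04% of all genes tested (0.573% higher, 0.466% lower). At an unadjusted p under 0.05, 5 of 6 passed, against 24.5% of all genes. DESeq2 called 2 (*Cybb*, adjusted p = 0.00200, and *Cyba*, adjusted p = 0.000300), against 4.17% of all genes, and gave adjusted p under 0.05 but a change under 1.5-fold for *Rac2* (0.0107), *Ncf1* (0.0111) and *Ncf4* (0.0338). The limma-voom test called 1 (*Cyba*, adjusted p = 0.0472), against 1.47%. The median log2 difference of the 5 phagocyte subunits was −0.51, against −0.0099 over all genes tested.

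*Cybb* had 292, 161 and 251 CPM in injured VEGFR3fl/fl and 138, 145 and 130 CPM in VEGFR3iLECko. The log2 difference was −0.77 ± 0.18 (SE, 95% CI −1.18 to −0.37, edgeR adjusted p = 0.0625). The injured VEGFR3fl/fl replicate 2 was the nearest to the VEGFR3iLECko libraries, and without it the difference was −0.98 with edgeR adjusted p = 0.0115. Without replicate 1, the highest of the group, it was −0.58 with edgeR adjusted p = 0.112, and with any 1 library left out the adjusted p ranged from 0.0115 to 0.183. *Cyba* had 393, 310 and 298 CPM against 234, 204 and 181, a log2 difference of −0.70 ± 0.14 (SE, 95% CI −1.02 to −0.37, edgeR adjusted p = 0.0511). The 2 parts of the membrane cytochrome therefore had point estimates close to each other, and the log2 ratio of *Cybb* to *Cyba* differed by −0.038 between these groups (exact permutation p = 0.8).

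The cytosolic subunits had smaller estimates. *Ncf1* had 91.8, 105 and 113 CPM in injured VEGFR3fl/fl and 80.3, 72.9 and 76.4 in VEGFR3iLECko, a log2 difference of −0.43 ± 0.12 (SE, 95% CI −0.70 to −0.17, edgeR adjusted p = 0.0804). *Ncf4* had 76.6, 71.8 and 72.3 against 52.8, 59.4 and 64.2 CPM, a log2 difference of −0.32 ± 0.089 (SE, 95% CI −0.52 to −0.12, edgeR adjusted p = 0.0850). *Rac2* had 131, 167 and 174 against 115, 102 and 116 CPM, with −0.51 ± 0.13 (SE, 95% CI −0.81 to −0.21, edgeR adjusted p = 0.0776). All 3 had groups without overlap and an interval that lay below 0 before adjustment over all genes. These intervals use a spread estimated over all 9 libraries, Sham included, and not over the injured libraries only. Without injured VEGFR3fl/fl replicate 1, *Rac2* was called at −0.62 (edgeR adjusted p = 0.0424), and without replicate 3 *Cyba* was called at −0.77 (edgeR adjusted p = 0.0466). With any 1 library left out, the log2 difference ranged from −0.62 to −0.43 for *Rac2* (edgeR adjusted p from 0.0424 to 0.235) and from −0.80 to −0.56 for *Cyba* (edgeR adjusted p from 0.0466 to 0.170).

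*Nox4* had 58.7, 62.8 and 70.7 CPM in injured VEGFR3fl/fl and 63.2, 74.1 and 82.7 CPM in VEGFR3iLECko. Its log2 difference of 0.19 ± 0.11 (SE, edgeR adjusted p = 0.295) had a 95% CI of −0.052 to 0.44, which leaves room for a rise of up to 1.36-fold. The log2 ratio of *Cybb* to *Nox4* within a library was 0.91 ± 0.241 in VEGFR3iLECko, a difference of −0.92 from injured VEGFR3fl/fl with no overlap (exact permutation p = 0.1, the smallest possible). The log2 ratio of *Rac2* to *Rac1* was −1.92 ± 0.0940 in VEGFR3iLECko (SD, n = 3), a difference of −0.41, also with no overlap (exact permutation p = 0.1). *Rac1* had 434, 411 and 409 CPM there.

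Injured VEGFR3fl/fl replicate 3 was the only library of its group with Y-linked genes near 0, as in all VEGFR3iLECko libraries. *Cybb* was 251 CPM in that library and 130 to 145 CPM in the VEGFR3iLECko libraries. *Cyba* was 298 against 181 to 234 CPM, *Ncf1* 113 against 72.9 to 80.3, *Ncf4* 72.3 against 52.8 to 64.2 and *Rac2* 174 against 102 to 116 CPM. The phagocyte subunits were thus lower than in this 1 library as well, by log2 differences of −0.30 (*Ncf4*) to −0.87 (*Cybb*), and *Nox4* (70.7 against 63.2 to 82.7 CPM) fell within the range. With 1 such library there is no test. With Y-linked expression as a covariate the log2 differences were −0.86 for *Cybb*, −0.52 for *Cyba*, −0.55 for *Ncf1*, −0.31 for *Ncf4* and −0.61 for *Rac2*, with edgeR adjusted p from 0.332 to 0.534.

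In the third comparison, VEGFR3iLECko against Sham, 6 of 6 genes were again called, all higher, against 34.8% of all genes tested called and 19.7% called higher. It shares its libraries with the other comparisons. The log2 differences were 3.37 for *Cybb*, 1.17 for *Cyba*, 3.91 for *Ncf1*, 4.50 for *Ncf4*, 3.86 for *Rac2* and 1.69 for *Nox4* (edgeR adjusted p from 3.32e-08 to 0.000147). The injured iris of VEGFR3iLECko mice thus still had 10.3-fold the Sham level of *Cybb* and 22.6-fold that of *Ncf4*.

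**Figure D2:**
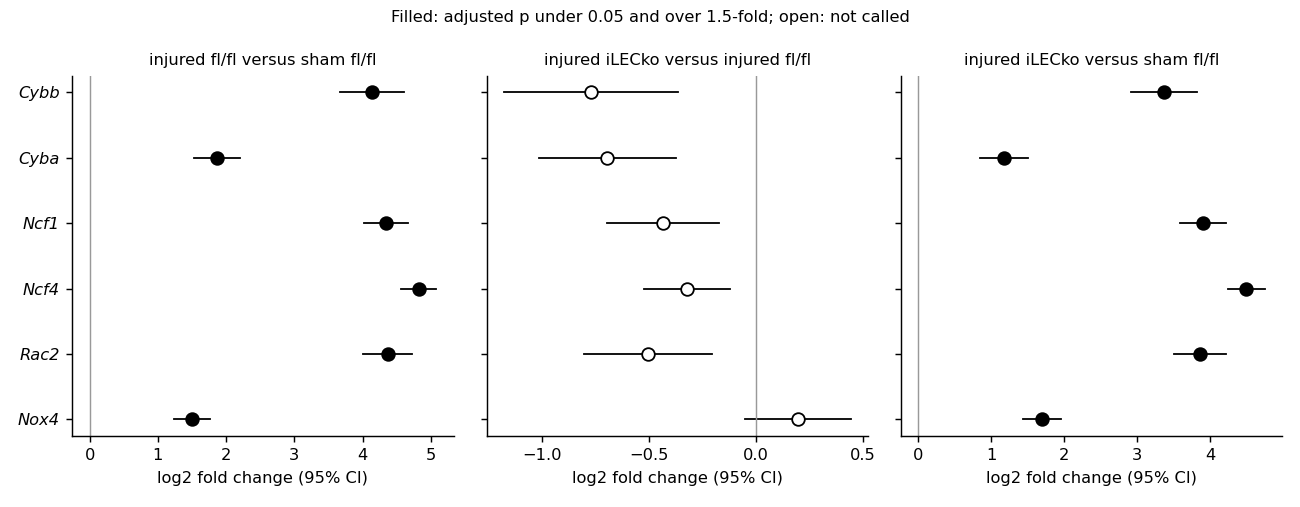
Log2 fold change (horizontal axis, points) with its 95% confidence interval (lines) from edgeR for the 6 genes in the 3 comparisons; filled points were called, open points were not, and each panel has its own scale. All genes are filled and right of 0 against Sham, and in the comparison of the 2 injured groups all are open, with only the interval of *Nox4* crossing 0.

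Leukocyte genes were also higher in the injured groups than in Sham. In bulk tissue, a change in the number of cells of a type and a change of RNA per cell cannot be told apart. *Ptprc* (CD45, on all leukocytes) was 8.03, 7.40 and 8.05 CPM in Sham, 113, 110 and 148 in injured VEGFR3fl/fl and 94.3, 115 and 155 in VEGFR3iLECko, and it did not pass the test between the injured groups (log2 difference −0.026, edgeR adjusted p = 0.943). All 12 of 12 macrophage markers were called higher after CAI, against 22.1% of all genes tested. The summed level of the 12 was 444.5 to 453 CPM in Sham and 3612 to 3941 CPM in injured VEGFR3fl/fl. In VEGFR3iLECko the sum was 2306 to 2638 CPM. Of the 12 markers 6 were called lower (*Adgre1*, *C1qa*, *C1qb*, *C1qc*, *Cx3cr1* and *Fcgr1*) and 1 higher (*Cd14*) than in injured VEGFR3fl/fl. Over all genes tested, 0.466% were called lower and 0.573% higher. Without VEGFR3iLECko replicate 2, 0 genes of the whole table were called between the injured groups. *Adgre1* (F4/80) was 132, 145 and 144 CPM against 97.4, 94.5 and 84.7 CPM. The call of *Adgre1* was lost under 11 of 21 alternatives, and with any 1 library left out its edgeR adjusted p ranged from 0.0277 to 0.112.

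Neutrophils also carry the oxidase. Of 13 neutrophil markers, 10 were tested and 8 were called higher after CAI, against 22.1% of all genes tested. The sum of the 13 was 4.65 to 6.25 CPM in Sham, 185 to 568 in injured VEGFR3fl/fl and 419.7 to 1376 in VEGFR3iLECko. None of the 10 was called between the injured groups, and all 10 had a higher estimate in VEGFR3iLECko, opposite in direction to the phagocyte subunits. *Ly6g*, a defining neutrophil marker, had 0 counts in each Sham library, 3, 3 and 4 in injured VEGFR3fl/fl and 4, 7 and 86 in VEGFR3iLECko. Other leukocyte lists were mostly lower by estimate in VEGFR3iLECko than in injured VEGFR3fl/fl, with no gene called. These were 8 of 9 monocyte and dendritic cell, 7 of 8 T cell, 3 of 3 B cell and 4 of 4 mast cell genes tested. After CAI 8 of 9, 8 of 8, 3 of 3 and 0 of 4 were called higher, against 22.1% of all genes tested. The part of any of these cell types in the oxidase values was not tested. Pigment cell and smooth muscle markers moved the other way after CAI. All 6 pigment cell genes were called lower, from a sum of 27481 to 29416 CPM in Sham to 3344 to 5771 CPM in injured VEGFR3fl/fl. So were 6 of 7 smooth muscle genes, against 17.5% of all genes tested. Other tissue markers rose: 5 of 5 pericyte, 4 of 6 fibroblast and 4 of 6 blood endothelial genes were called higher, against 22.1% of all genes. The part of these shifts in the oxidase values was not tested either.

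**Figure D3:**
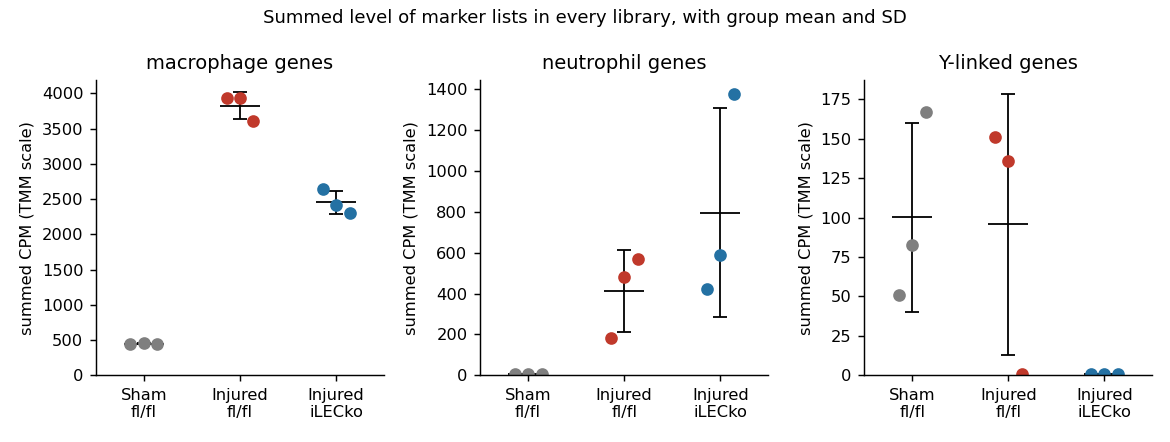
Summed CPM (linear axes from 0) of the macrophage, neutrophil and Y-linked gene lists in every library, with group mean and SD. The macrophage sum is lower in all VEGFR3iLECko libraries than in the injured VEGFR3fl/fl libraries, the neutrophil sum is not, and the Y-linked sum is near 0 in all VEGFR3iLECko libraries and in 1 injured VEGFR3fl/fl library.

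Set against *Ptprc* in the same library, the members did not move alike after CAI. The log2 ratio to *Ptprc* was higher than in Sham by 0.85 for *Ncf4*, 0.40 for *Rac2* and 0.38 for *Ncf1*, and lower by −2.10 for *Cyba* and −2.47 for *Nox4*, in each case with no overlap and exact permutation p = 0.1, the smallest possible. For *Cybb* it differed by 0.13 (exact permutation p = 0.8). *Ptprc* itself rose by 3.98 on the log2 scale, against a median of 0.010 over all genes tested. Any gene that rose less than *Ptprc* therefore has a lower ratio to it after CAI. Against the mean of the macrophage list, the ratio of *Cybb* was higher than in Sham by 1.28, and those of *Ncf1*, *Rac2* and *Ncf4* by 1.53, 1.55 and 2.001, again each with no overlap (exact permutation p = 0.1). *Cyba* (−0.95) and *Nox4* (−1.32) were lower with this denominator too. The share of all genes whose ratios did not overlap was not computed for either denominator.

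Between the 2 injured groups, the ratio depended on the denominator. Against *Ptprc*, the differences were −0.69 for *Cybb*, −0.65 for *Cyba*, −0.45 for *Rac2*, −0.39 for *Ncf1* and −0.28 for *Ncf4*, all with overlapping groups (exact permutation p from 0.2 to 0.3). Against the macrophage list, they were −0.22, −0.18, 0.016, 0.084 and 0.19 in the same order (exact permutation p from 0.3 to 1), so the sign turned for *Rac2*, *Ncf1* and *Ncf4*. *Nox4* was higher against this list by 0.70 with no overlap (exact permutation p = 0.1).

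**Figure D4:**
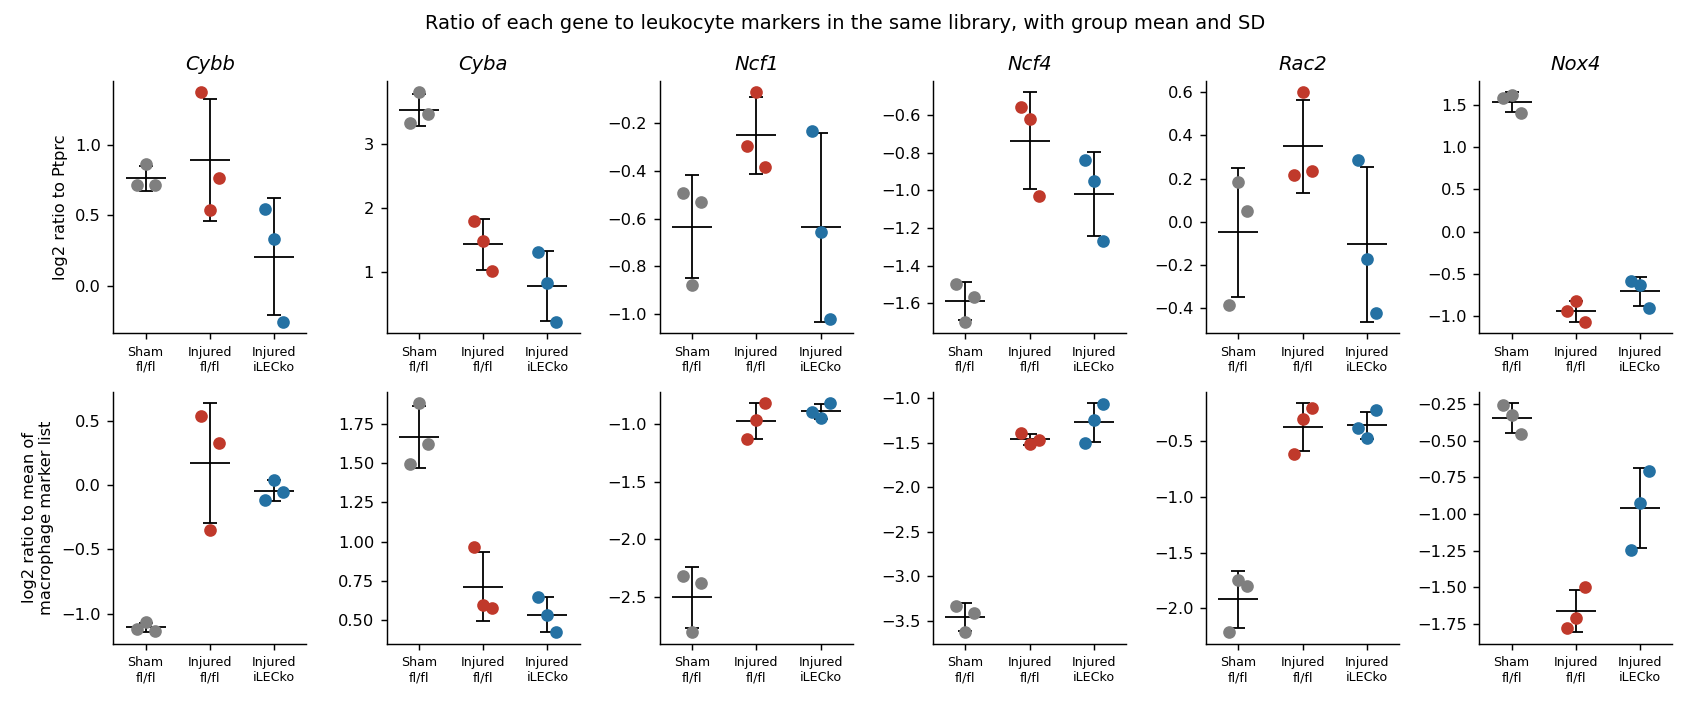
Log2 ratio of each gene to *Ptprc* (top row) and to the mean of 12 macrophage markers (bottom row) in the same library, with group mean and SD; each panel has its own scale. The 2 injured groups overlap in every panel except *Nox4* against the macrophage markers, whereas the *Cyba* and *Nox4* ratios lie highest in Sham in both rows.

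Of the other NOX and DUOX genes, few were measurable. Of 9 family genes listed, 8 were in the files and 4 were tested. The partner gene *Poldip2* had means of 89.6 CPM in Sham, 66.4 in injured VEGFR3fl/fl and 74.1 in VEGFR3iLECko. *Noxo1* had 4.28, 3.85 and 3.42 CPM in the same order. Neither was called in any comparison. After CAI 1 was called higher, against 22.1% of all genes tested: *Duoxa1*, the maturation factor of the oxidase DUOX1, at only 2 to 34 counts. Its injured VEGFR3fl/fl libraries had 0.425, 0.527 and 1.95 CPM, and without the third the log2 fold change fell from 2.08 to 1.07 (edgeR adjusted p = 0.0914), while leaving out Sham replicate 2 or 3 also ended the call. *Nox1* had 2 to 9 counts, *Nox3* 0 to 1, *Duox2* 1 to 13 and *Duoxa2* 0 to 2 in any library, too few to test. *Duox1* was tested at 2 to 20 counts. Its means were 0.298 CPM in Sham, 0.369 in injured VEGFR3fl/fl and 0.958 in VEGFR3iLECko. *Duox1* and *Duoxa1* were called higher in VEGFR3iLECko than in Sham, 2 of 4 tested against 19.7% of all genes. With the DUOX oxidases set aside, *Nox4* was therefore the only NOX catalytic subunit other than *Cybb* with more than 9 counts in a library.

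Of 17 genes for assembly, activation and support of the oxidase, 13 were called higher and 1 lower after CAI. Over all genes tested, 22.1% were called higher and 17.5% lower. The median log2 fold change of the 17 was 1.09. *Vav1*, an exchange factor for RAC, rose by 4.16 on the log2 scale (edgeR adjusted p = 1.75e-08), *Arhgdib*, the blood-cell inhibitor that keeps RAC2 in the cytosol, by 2.76 (edgeR adjusted p = 2.14e-07) and *Hvcn1*, the proton channel that balances the charge the oxidase moves, by 1.84 (edgeR adjusted p = 9.60e-05). *Cybc1*, the chaperone of the cytochrome, rose by 1.09 (edgeR adjusted p = 1.16e-05). *Prkcb*, a kinase that phosphorylates NCF1, was the 1 gene called lower, at −0.64 (edgeR adjusted p = 0.000532). *Coro1a* (3.69), *Pik3cg* (2.96) and *Pik3cd* (2.75), which are genes of blood cells, rose as well, and the widely expressed *Msn* rose by 0.73.

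Between the injured groups 1 of the 17 was called, against 0.466% of all genes called lower. *Arhgdib* had 210, 175 and 177 CPM in injured VEGFR3fl/fl and 128, 107 and 126 CPM in VEGFR3iLECko, a log2 difference of −0.64 (edgeR adjusted p = 0.0384), and this call was lost under 11 of 21 alternatives. They included 6 of the 9 that leave out 1 library (edgeR adjusted p up to 0.145), the replicate block (0.0781), the Y-linked covariate (0.323) and a fit of only the 6 libraries compared (0.107). *Vav1* and *Prkcd* (both −0.47) passed the p threshold with adjusted p = 0.0263 by edgeR but not the fold. *Hvcn1* had 262, 144 and 174 against 130, 109 and 90.9 CPM, with a log2 difference of −0.82 (edgeR adjusted p = 0.0781) and no overlap. By estimate 13 of the 17 were lower, with a median of −0.22.

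Of 10 transcription factors known to act on phagocyte oxidase genes, 9 were tested. After CAI 6 were called higher, against 22.1% of all genes tested. *Spi1*, which encodes PU.1, rose by 4.07 on the log2 scale (edgeR adjusted p = 4.87e-08) and *Irf8*, which pairs with PU.1 on ETS-IRF elements, by 3.42 (edgeR adjusted p = 4.09e-08). *Runx1* (3.69), *Elf4* (2.64), *Cebpb* (2.55) and *Irf1* (1.20) were the others. Between the injured groups only *Irf8* was called, against 0.466% of all genes called lower. It had 1285, 1193 and 1201 counts in injured VEGFR3fl/fl and 801, 721 and 708 in VEGFR3iLECko, a log2 difference of −0.76 (edgeR adjusted p = 0.0213). This call was lost without iLECko replicate 2 (edgeR adjusted p = 0.107), with the Y-linked covariate (0.169), with only the 6 libraries compared (0.0943) and at a 2-fold threshold. *Spi1* differed by −0.40 (edgeR adjusted p = 0.0849), close to the estimates of *Ncf1* and *Rac2*.

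**Figure D5:**
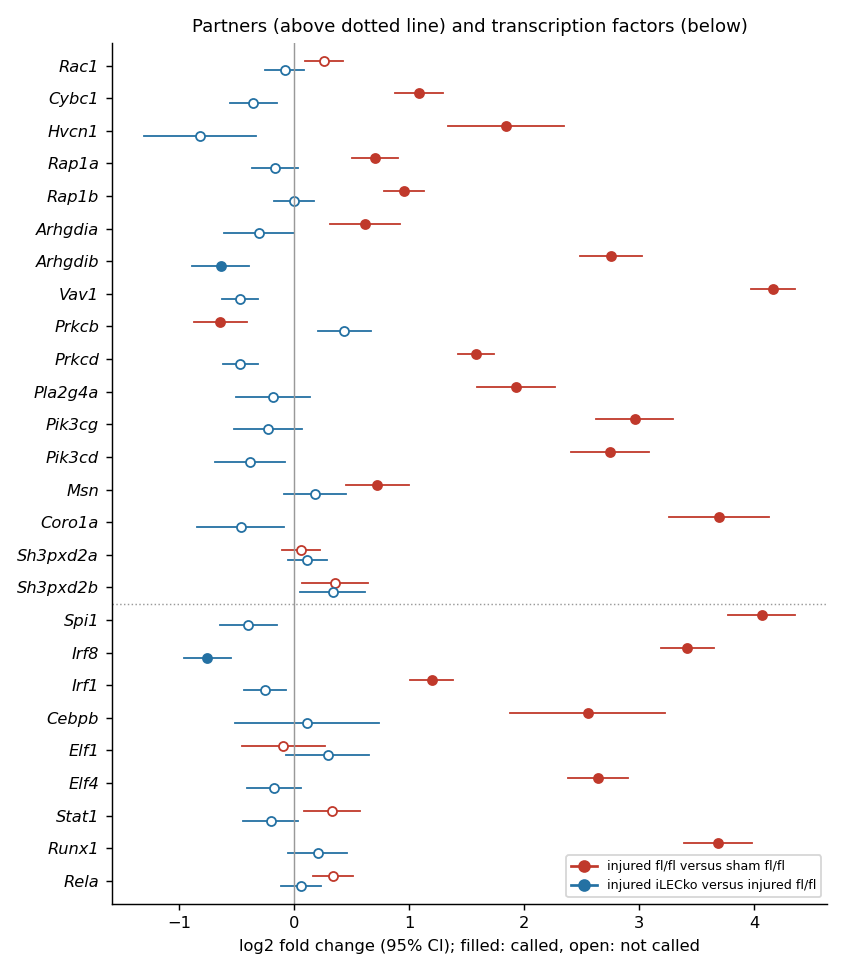
Log2 fold change with 95% confidence interval from edgeR for 17 oxidase partner genes (above the dotted line) and 9 transcription factors (below it), after CAI (red) and between the injured groups (blue); filled points were called. Most red points are filled and right of 0, and *Arhgdib* and *Irf8* are the only filled blue points.

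Genes that dispose of superoxide and peroxide were the last list. Of 16 listed, 14 were tested, and 6 were called higher and 1 lower after CAI, against 22.1% higher and 17.5% lower over all genes tested, with a median log2 fold change of 0.52. The called genes included *Gpx1* (1.43), *Cat* (0.99), *Prdx4* (0.91) and *Gpx3* (0.83), which remove peroxides, and *Prdx6* (−0.90), which was lower. The superoxide dismutases *Sod1* (−0.24), *Sod2* (−0.40) and *Sod3* (0.60) were not called. *Lpo*, a peroxidase of secretions, was the 1 gene called between the injured groups, against 0.573% of all genes called higher. It had 12, 13 and 13 counts against 53, 31 and 45, a log2 difference of 1.72 (edgeR adjusted p = 0.0417). It lost the call when any 1 library was left out (edgeR adjusted p from 0.0592 to 0.111).

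Among 14221 genes with a mean of at least 1 CPM, those whose centred log2 profile over the 9 libraries was nearest to *Cybb* included *Arhgap25* (root mean square difference 0.153), *Cd68* (0.170), *Psd4* (0.193) and *Bcl2a1d* (0.206), whose reads may be shared with near-identical copies. Genes nearest to *Nox4* were *Nos3* (0.0835), *Cd34* (0.105), *Ctps* (0.107), *Cbfb* (0.112) and *Gm46156* (0.120). *Nos3*, the nitric oxide synthase of endothelium, had 14.1, 14.0 and 13.0 CPM in Sham, 38.8, 44.6 and 41.4 in injured VEGFR3fl/fl and 40.4, 45.1 and 50.8 in VEGFR3iLECko. The distance between *Cybb* and *Nox4* themselves was 1.11, whereas *Ncf1* and *Rac2* lay 0.232 apart and *Cybb* and *Cyba* 1.06. *Cyba* lay 0.448 from *Nox4*, nearer than to any other phagocyte subunit (1.06 to 1.51). These distances describe 9 libraries that differ mainly by injury.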

How the data were processed

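RNA of 9 pooled iris samples was sequenced as single-end reads of 50 bases. Per the submitters' processing notes, the authors aligned reads to mm10 with HISAT2 2.0.4 and Bowtie2 2.2.5 and used DESeq2 1.4.5; the annotation and counting program are not given in the sources used here. The deposited values are estimated counts per gene, of which 9.83% to 10.3% per library were not whole, and they were rounded. A combined table with identical values and group averages was not used. Groups came from titles, treatments and descriptions; the genotype tags of 2 VEGFR3iLECko libraries name another VEGFR number and were not followed.

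In R 4.3.3, edgeR 4.0.16 kept 15010 genes (filterByExpr), normalized by TMM (factors 0.90 to 1.09) and fitted all 9 libraries by group with the quasi-likelihood test and Benjamini-Hochberg adjustment over all genes tested. A call needed adjusted p under 0.05 and a change over 1.5-fold. The study's test, DESeq2, run here as 1.42.0, and limma 3.58.1 (voom) were alternatives, as were other normalizations, filters, thresholds, covariates and leaving out each library. Positions are from RefSeq for GRCm38.p6, the same genome as mm10, and transcript lengths from GENCODE M21, matched for 97.6% of genes. Approximate TPM and ratios (pseudocount 0.5 counts) were computed from counts. The genes, lists and tests were chosen with earlier results of these data known. Named genes were the 6 members, listed pathway and marker genes, 3 reference genes and the 5 genes nearest to *Cybb* and *Nox4*; some genes these rules name are not reported here, and list counts leave them out. On simulated counts for the comparison of injured groups (14693 genes, 200 changed 3-fold), 178 were recovered, 0 in the wrong direction, with 15 false calls. Changes as small as those of the members in this comparison were not simulated, so this gives no power for them. Apart from the changed genes, all 9 simulated libraries, Sham included, were drawn from the injured VEGFR3fl/fl means with 1 spread per gene. A spread that differs between groups was not simulated. Replicates differed by more than counting noise (chi-square per degree of freedom 5.13 to 76.2). P-values measure the spread between pools of irises, and the number of pools limits precision. The edgeR p-values and intervals use 1 spread per gene estimated over all 9 libraries, Sham included. Pairs of Sham replicates had chi-square per degree of freedom of 5.13 to 11.2, and pairs within the injured groups 17.4 to 76.2. Intervals between the injured groups may therefore understate the spread of those pools.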

Additional observations from a re-analysis of the deposited data

How the results depend on the processing

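All 6 genes stayed called in both comparisons with Sham under each of 21 alternatives. Of 378 alternative log2 values of the members, 370 kept their direction and side of the threshold, 8 gained a call and 0 reversed. Between the injured groups, where 0 of 6 were called, upper-quartile normalization, a filter at 2 approximate TPM and limma-voom each called 1, DESeq2 called 2, and leaving out 1 library gave 0 to 1. All genes called there numbered 156, 41 at a 2-fold threshold, 626 with DESeq2, 2 with the Y-linked covariate, 0 with only the 6 libraries compared, and 0 to 281 with 1 library left out.

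The replicate numbers did not pair the libraries (correlations −0.378 to 0.113), and the fit with the replicate block called 0 of 6 members and 24 genes in all between the injured groups. In that comparison, 0 members had a ratio to *Ptprc* without overlap, 1 with *Adgre1* or the macrophage list as denominator, and 0 to 4 with 1 library left out. *Nox4* ranked 4 of 6 per length in Sham with the median transcript length, in place of 2. *Ptprc* itself turned from −0.026 to 0.036 with library size only (−0.24 to 0.13 with 1 library left out), and *Duoxa1* from 0.67 to −0.30 with the Y-linked covariate. The causes were not tested.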
